A study of Mus musculus with 22 samples.

Results

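Retinoic acid synthesis and signalling was followed through 8 genes, Stra6, Rbp2, Aldh1a1, Aldh1a2, Aldh1a3, Rara, Rarb and Rarg, of the 46078 genes in the count table. They were chosen by name, as an uptake receptor, a retinol binding protein, the 3 retinal dehydrogenases and the 3 retinoic acid receptors. Poly(A) RNA of the distal colon was sequenced in 22 mice, 1 library per mouse. The groups were C57BL/6 mice aged 14 weeks (n = 8, 4 males and 4 females), Winnie mice aged 14 weeks (n = 7, 3 males and 4 females) and Winnie mice with prolapse aged 18 weeks, labelled severely inflamed and called Winnie-Prolapse here (n = 7, 4 males and 3 females). Winnie mice carry a missense mutation of the mucin gene Muc2 in every cell and develop colitis without any agent being given. No transgene, Cre or treatment is named for any group, and C57BL/6 and Winnie mice came from 1 breeding colony. Prolapse and age go together and cannot be told apart.

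Retinoic acid is the active acid made from vitamin A. Retinol is bound inside cells by carrier proteins, oxidised to retinal by retinol dehydrogenases, and oxidised again, irreversibly, by the Aldh1a enzymes. The acid binds nuclear receptors that sit on DNA as pairs with a retinoid X receptor and switch target genes on. In the gut, retinoic acid made by epithelial cells, stromal cells and dendritic cells is known for giving lymphocytes their gut-homing receptors and for the tone of the mucosal immune response.

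The genes lie on several chromosomes of the build GRCm38, and all 8 are protein coding. Aldh1a1 (ENSMUSG00000053279) lies at chr19:20492715-20643465 on the plus strand, Aldh1a2 (ENSMUSG00000013584) at chr9:71215789-71296243 on the plus strand and Aldh1a3 (ENSMUSG00000015134) at chr7:66390890-66427517 on the minus strand. Rbp2 (ENSMUSG00000032454) lies at chr9:98486115-98509781 and Stra6 (ENSMUSG00000032327) at chr9:58063788-58153996, both on the plus strand. The receptor genes are Rara (ENSMUSG00000037992) at chr11:98927818-98974942 on the plus strand, Rarb (ENSMUSG00000017491) at chr14:16430839-16819156 on the minus strand and Rarg (ENSMUSG00000001288) at chr15:102234938-102257517 on the minus strand. Rarb overlaps Top2b, and Stra6 overlaps Ccdc33, each on the other strand. The library kit kept strand, but the strand setting of the counting is not given in the sources used here, so reads of such pairs may be shared. The coding sequence of Aldh1a1 was 91.6% identical, over aligned bases, to that of its neighbour Aldh1a7, so reads of these 2 genes may be split between them. It was 69.9% identical to that of Aldh1a2 and 69.1% identical to that of Aldh1a3. Among the receptors, identity of coding sequences ran from 73% (Rarb and Rarg) to 77.9% (Rara and Rarg).

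Receptors for retinoic acid bind direct repeats of a short motif that reads A or G, then G, then G or T, then TCA, most often with a 5-base spacer, and the Rarb promoter is the textbook case. RefSeq promoter windows of GRCm38.p6, from 250 bases before to 50 bases after a gene start, were found for 7 of the 8 genes (15 windows). The 3 shown are those of Rarb, the receptor gene with lower levels in both Winnie groups, and of Rbp2 and Aldh1a1, the members correlated most with the inflammation genes in Winnie. In Rarb the capitals mark the direct repeat with a 5-base spacer, in Rbp2 they mark AGGTCA read on the other strand, and Aldh1a1 holds neither. Each is written in the direction of its gene.
Rarb, chr14:16575427-16575726, minus strand: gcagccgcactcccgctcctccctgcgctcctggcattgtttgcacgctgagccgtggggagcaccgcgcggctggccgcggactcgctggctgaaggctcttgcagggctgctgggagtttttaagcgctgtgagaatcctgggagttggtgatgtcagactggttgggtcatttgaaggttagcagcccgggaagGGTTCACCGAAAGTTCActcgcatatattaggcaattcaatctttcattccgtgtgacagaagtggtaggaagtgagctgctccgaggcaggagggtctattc
Rbp2, chr9:98490287-98490586, plus strand: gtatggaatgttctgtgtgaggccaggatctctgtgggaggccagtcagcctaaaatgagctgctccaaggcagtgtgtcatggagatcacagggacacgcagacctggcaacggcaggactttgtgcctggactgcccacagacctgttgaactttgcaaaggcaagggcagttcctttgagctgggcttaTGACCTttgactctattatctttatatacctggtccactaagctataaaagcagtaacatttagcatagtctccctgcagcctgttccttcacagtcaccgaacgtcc
Aldh1a1, chr19:20601718-20602017, plus strand: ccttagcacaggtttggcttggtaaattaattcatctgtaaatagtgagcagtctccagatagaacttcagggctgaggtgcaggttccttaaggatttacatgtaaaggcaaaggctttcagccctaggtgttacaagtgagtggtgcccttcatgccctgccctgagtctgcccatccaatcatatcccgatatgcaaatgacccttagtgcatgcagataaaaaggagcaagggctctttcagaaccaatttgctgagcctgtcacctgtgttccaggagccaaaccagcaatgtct
The repeat in Rarb lies at positions -53 to -37 from the start. On both strands, such a repeat was found in 1 of the 15 member windows and in 32 of all 32851 windows (0.0974%). Among the windows of the other retinoid pathway genes, that of Cyp26a1, which encodes the main retinoic acid hydroxylase, held it at positions -32 to -16, as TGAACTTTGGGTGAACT on the gene's strand. The repeat with a 2-base spacer was in 0 member windows and 88 of all windows (0.268%). AGGTCA on either strand was in 3 member windows, of Rbp2, Rara and Rarg, and in 16.3% of all windows. AGGTCA is itself one form of the short motif, and the windows of Rarb held none. A match describes letters in the window only.

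Libraries held 24.8 to 36.3 M counts. The 10 colonocyte markers of the labelled tissue summed to 3483 to 17133 CPM (counts scaled to the library total), and 1 library stood apart. In C57BL/6 replicate 7, a female, the 10 small intestinal enterocyte markers summed to 1079 CPM against 87 to 157 CPM in the other 7 C57BL/6 libraries, most of it from Fabp2 (845 CPM), with Alpi at 98 CPM, while Fabp1 stayed at or under 0.543 CPM and Apoa4 at or under 0.181 CPM. Its smooth muscle markers summed to 10855 CPM against 5807 to 7661 CPM, and its goblet cell markers to 4370 CPM against 8437 to 12507 CPM. For 6 of the 8 members and 32 of the 55 other retinoid pathway genes, this library lay outside the range of the other C57BL/6 libraries. Isx, a homeobox repressor of vitamin A uptake, stood at 105 CPM there against 0.19 to 1.23 CPM, and Adh1 at 223 CPM against 1580 to 2043 CPM. Where a call or the looser limit for a member or a named pathway gene changed without this library, both values are given. In Winnie-Prolapse replicate 6, 18.9% of the counts came from 7 milk protein genes. This share lowers the CPM of the rest, and other RNA that came with it may raise some genes, which was not tested. In whole tissue, fewer cells of a type and less RNA per cell cannot be told apart.

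Per kilobase of merged exons, Rbp2 was the most abundant member in C57BL/6 (median 39.6 CPM per kb, range 21.3 to 47.1). Next came Rara (median 7.6 CPM per kb), Aldh1a1 (6.57 CPM per kb) and Rarg (4.49 CPM per kb), whose ranges overlapped. Aldh1a2 and Aldh1a3 had medians of 1.7 and 1.59 CPM per kb, and Stra6 and Rarb stood lowest, at 0.801 and 0.499 CPM per kb. Ranges of neighbours in this order overlapped, except that Rbp2 lay above Rara in every C57BL/6 library. In Winnie-Prolapse the median of Aldh1a3 (19.9 CPM per kb, range 1.63 to 135) passed that of Rbp2 (12.6 CPM per kb, range 2.89 to 33.3), and the ranges overlapped.

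**Figure D1:**
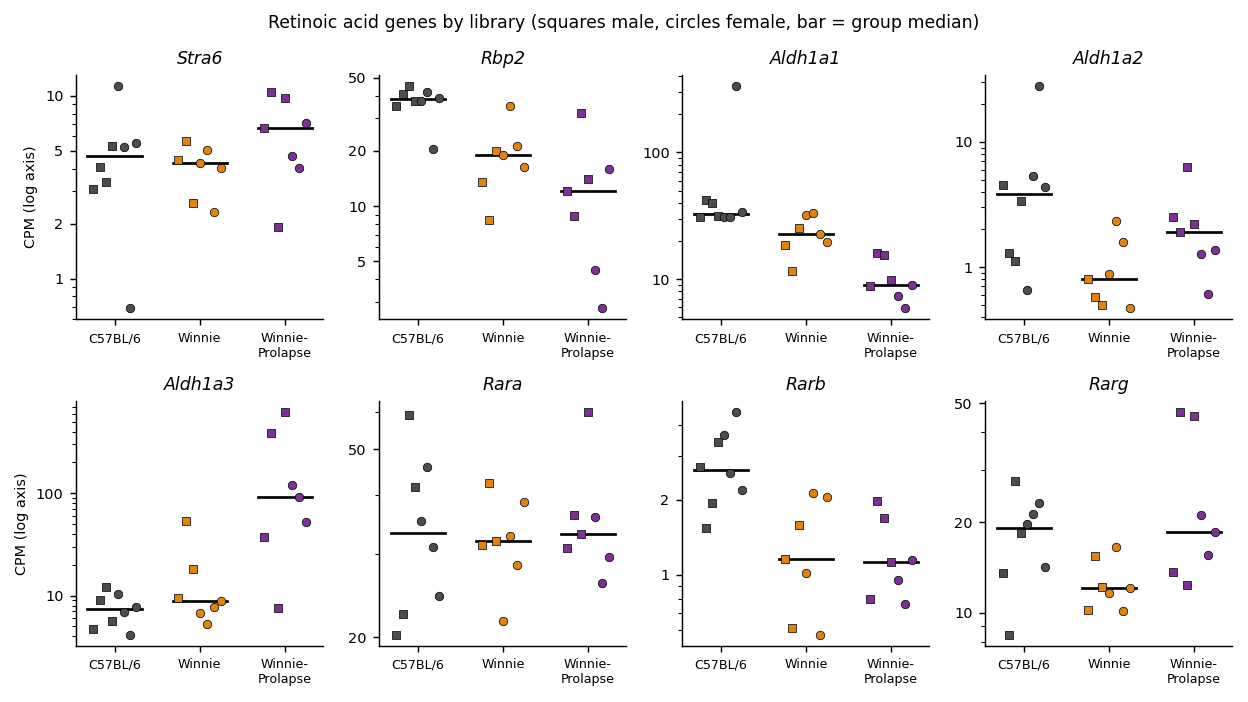
CPM of the 8 genes in each of the 22 libraries, on log axes, by group (squares males, circles females, bars group medians). Aldh1a1 is lower in each Winnie-Prolapse library than in any C57BL/6 library, Aldh1a3 is above the C57BL/6 range in 6 of 7 Winnie-Prolapse libraries, and C57BL/6 replicate 7 is the high point of Aldh1a1 (337 CPM) and Aldh1a2 (28.2 CPM).

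A gene was called at an adjusted p under 0.001 and a change of at least 1.5-fold, the study's limits, in edgeR's quasi-likelihood test with Benjamini-Hochberg adjustment over all genes tested. An adjusted p under 0.05 with the same fold is named the looser limit. In Winnie against C57BL/6 the groups differ in the Muc2 mutation and in colitis, which cannot be told apart. There 0 of the 8 members were called and 4 passed the looser limit, all lower in Winnie (Aldh1a1, Aldh1a2, Rbp2 and Rarb). Of the 8, 6 had an unadjusted p under 0.05 in edgeR, where 6901 of all 17289 genes tested did. DESeq2 and limma-voom called 0 of the 8. Among all genes tested, 0.0925% were called and 15.9% passed the looser limit. The 0.0925% (15 genes higher, 1 lower) rests on single libraries: it was 0 without C57BL/6 replicate 1, 2 or 6, 436 higher and 241 lower without Winnie replicate 5, and 1 to 27 higher and 0 to 5 lower without any other. The 4 members became 2 without Winnie replicate 1 and 2 with limma-voom, and with DESeq2 they were 3 lower and 1 higher (Aldh1a3). In Winnie-Prolapse against C57BL/6, 1 member was called (Aldh1a3, higher) and 4 passed the looser limit (Aldh1a3 higher, Aldh1a1, Rbp2 and Rarb lower), where 18.3% of all genes were called and 34.4% passed the looser limit. In Winnie-Prolapse against Winnie, 0 members were called and 3 passed the looser limit (Aldh1a3 and Rarg higher, Aldh1a1 lower), with 0% of all genes called, 6.99% past the looser limit and 4743 genes at an unadjusted p under 0.05. Of the members, 4 had an unadjusted p under 0.05 there, and DESeq2 called 2, Aldh1a1 and Aldh1a3, where it called 485 genes higher and 168 lower. With 1 library left out, 272 to 1108 genes passed the looser limit as higher and 160 to 843 as lower there (727 and 464 with all), and the 3 members became 1 without Winnie replicate 4 or 5. Over the 3 comparisons DESeq2 called 0, 4 and 2 members beside 5.84%, 21.2% and 3.09% of the genes it gave an adjusted p. In males alone 0 members were called in each, beside 0.74%, 1.76% and 0% of all genes, and in females alone 0, 1 and 1 (Aldh1a3 both times), beside 0%, 1.45% and 0.311%. At the looser limit, males alone gave 4, 2 and 0 members, beside 22.5%, 24.2% and 0%, and females alone 0, 4 and 2, beside 0.00579%, 27.1% and 14.3%. The 3 comparisons share libraries, so their results are not independent. The median fitted log2 fold change over the 8 members was -0.67 in Winnie and -0.52 in Winnie-Prolapse against C57BL/6, where the medians over all genes were -0.01 and -0.01. Without C57BL/6 replicate 7 the members' medians were -0.44 and -0.07, and in males alone the median in Winnie-Prolapse was 0.30, so its direction rests on the libraries used.

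**Figure D2:**
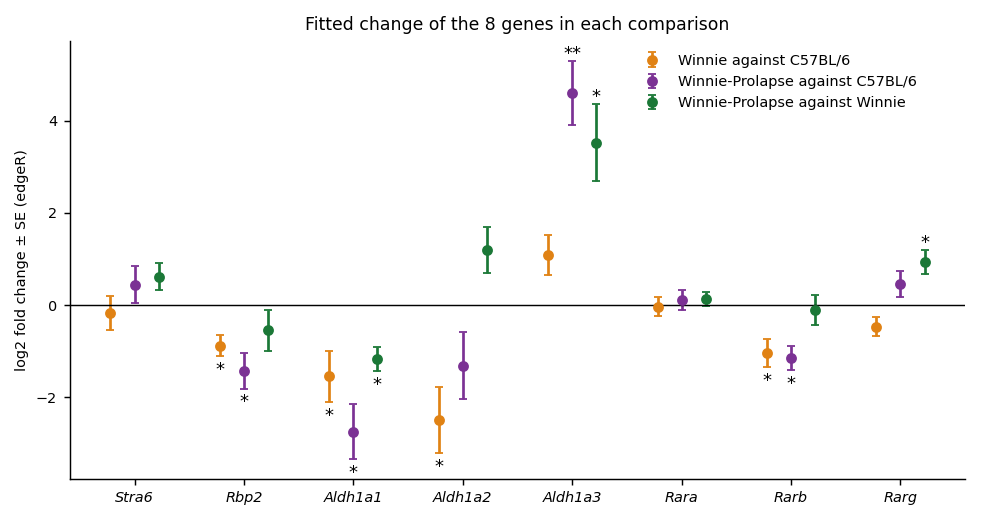
Fitted log2 fold change with its standard error (edgeR) for each of the 8 genes in the 3 comparisons; 1 asterisk marks the looser limit and 2 mark a call. Aldh1a3 has the only call, at 4.61 in Winnie-Prolapse against C57BL/6, and Rara lies near 0 in all 3 comparisons.

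Aldh1a3 encodes a retinal dehydrogenase that the healthy colon holds at a low level. In C57BL/6 it was measured at 4.72, 8.99, 12.3, 5.6, 10.4, 6.84, 4.17 and 7.82 CPM in replicates 1 to 8. In Winnie it was 9.38, 53.5, 18.3, 6.72, 5.28, 7.77 and 8.77 CPM, and in Winnie-Prolapse 37.2, 383, 7.5, 622, 120, 92 and 52.2 CPM. Of the Winnie-Prolapse libraries, 6 lay above every C57BL/6 library and replicate 3 lay within their range, whereas only replicates 2 and 3 of Winnie lay above it. Aldh1a3 rose 24.7-fold in the mean, from 7.6 ± 2.83 CPM in C57BL/6 (SD, n = 8) to 188 ± 229 CPM in Winnie-Prolapse (SD, n = 7), and the fitted log2 fold change was 4.61 ± 0.69 (SE, edgeR adjusted p = 6.92e-05). With any 1 library left out, the change stayed between 3.93 and 4.82, and Aldh1a3 was called each time. The call was lost with limma-voom (3.68, adjusted p = 0.0024) and in males alone (4.97, edgeR adjusted p = 0.0125). Against Winnie the log2 fold change was 3.53 ± 0.83 (SE, edgeR adjusted p = 0.0241), past the looser limit in 12 of 14 fits that left out 1 library, and not with limma-voom (adjusted p = 0.0576) or in males alone (edgeR adjusted p = 0.823). Winnie against C57BL/6 gave 1.09 ± 0.43 (SE, edgeR adjusted p = 0.0743), and 0.39 without Winnie replicate 2.

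Markers of squamous epithelium were high in some of these libraries. The 10 markers (Krt5, Krt14, Krt13, Krt4, Krt6a, Krt6b, Trp63, Sprr1b, Dsg3 and Sprr3) summed to 2.09 to 3.05 CPM in C57BL/6, 2.04 to 57.1 CPM in Winnie and 2.36 to 3343 CPM in Winnie-Prolapse. In 5 Winnie-Prolapse libraries all 10 had more than 3 counts, in sums of 2047, 1039, 184, 249 and 3343 CPM for replicates 2, 4, 5, 6 and 7. Replicate 6 is the library with 18.9% milk protein counts, and the part of their source in its levels was not tested. Of these 5, replicate 7 had the highest squamous sum and the lowest Aldh1a3 (52.2 CPM). In replicate 1 the markers summed to 4.88 CPM, with 2 of the 10 at 0 counts, and Aldh1a3 was 37.2 CPM, above the highest C57BL/6 library (12.3 CPM). Replicate 3, with 2.36 CPM of squamous markers, had the C57BL/6 level of Aldh1a3. Winnie replicate 2, the Winnie library with the highest Aldh1a3, also had the highest squamous sum of its group. The part of squamous cells in the change of Aldh1a3 was not tested.

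Aldh1a1 encodes the retinal dehydrogenase of the colonic epithelium and of some stromal cells. In C57BL/6 it was 30.7, 41.7, 40, 31.3, 30.9, 30.8, 337 and 33.6 CPM, a narrow range apart from replicate 7. Winnie libraries held 18.5, 11.6, 25.3, 31.8, 33.2, 22.6 and 19.8 CPM, and Winnie-Prolapse libraries 8.88, 16.1, 15.5, 9.92, 7.39, 5.88 and 9.05 CPM. All 7 Winnie-Prolapse libraries lay below every C57BL/6 library, and 5 of 7 Winnie libraries did. Aldh1a1 was the only member whose groups did not overlap in any comparison (Winnie-Prolapse against C57BL/6), and such separation was found in 16% of all genes tested there, 1.64% in Winnie against C57BL/6 and 0.962% in Winnie-Prolapse against Winnie. The mean was 72 ± 107 CPM (SD, n = 8) in C57BL/6, or 34.1 ± 4.73 CPM (SD, n = 7) without replicate 7, 23.3 ± 7.61 CPM in Winnie and 10.4 ± 3.93 CPM in Winnie-Prolapse (SD, n = 7 each).

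The size of the fitted change of Aldh1a1 depended on replicate 7 of C57BL/6. In Winnie-Prolapse the log2 fold change was -2.74 ± 0.59 (SE, edgeR adjusted p = 0.00126), past the looser limit but not called. Without that library it was -1.63 ± 0.19 (SE, edgeR adjusted p = 7.99e-06) and Aldh1a1 was called, a smaller fitted change with a smaller error. In Winnie the log2 fold change was -1.55 ± 0.55 (SE, edgeR adjusted p = 0.0498) with all libraries and -0.47 ± 0.19 (SE, edgeR adjusted p = 0.0707) without replicate 7, under 1.5-fold, so the looser limit was not met. With each library left out in turn, Aldh1a1 passed the looser limit in Winnie in 6 of 15 fits (edgeR adjusted p from 0.0449 to 0.0991), and in 5 of 9 other settings. Winnie-Prolapse against Winnie does not use that library and gave -1.17 ± 0.25 (SE, edgeR adjusted p = 0.0193). That passed the looser limit in 14 of 14 fits with 1 library left out, but not with all 3 groups in one fit (edgeR adjusted p = 0.126) or in males alone (-0.53, edgeR adjusted p = 0.823). The near copy Aldh1a7 had 12.2 ± 3.19 CPM (SD, n = 8) in C57BL/6, 12.2 ± 5.49 CPM in Winnie and 5.06 ± 2.44 CPM in Winnie-Prolapse (SD, n = 7 each), and it fell in Winnie-Prolapse by 1.20 on the log2 scale (SE 0.25, edgeR adjusted p = 0.000906), a call that held in 3 of 15 fits with 1 library left out and not without C57BL/6 replicate 7 (-1.07, edgeR adjusted p = 0.00137).

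Aldh1a2 encodes the retinal dehydrogenase of mesothelium, stromal cells and gut dendritic cells. It was scarce, with 13 to 778 counts per library. C57BL/6 libraries ran 4.54, 1.3, 1.11, 3.36, 0.656, 5.31, 28.2 and 4.34 CPM, Winnie libraries 0.798, 0.577, 0.501, 0.878, 2.33, 1.58 and 0.469 CPM, and Winnie-Prolapse libraries 2.52, 1.91, 6.35, 2.21, 1.27, 0.604 and 1.36 CPM. The groups overlapped in all 3 comparisons. In Winnie the log2 fold change was -2.49 ± 0.72 (SE, edgeR adjusted p = 0.0218), and -1.44 ± 0.49 (SE, edgeR adjusted p = 0.0398) without C57BL/6 replicate 7, past the looser limit both times. It was not met with limma-voom (-1.74, adjusted p = 0.0873) or in females alone (-2.77, edgeR adjusted p = 0.197). Winnie-Prolapse gave -1.31 ± 0.73 (SE, edgeR adjusted p = 0.139), which became -0.23 without that library. The 6 mesothelium markers, Gpm6a among them, summed to 3.2 to 89 CPM in C57BL/6, 1.54 to 32.7 CPM in Winnie and 4.12 to 51.6 CPM in Winnie-Prolapse. Within C57BL/6 the highest sum was in replicate 7 (89 CPM, next replicate 6 at 82.1 CPM) and within Winnie-Prolapse in replicate 3 (51.6 CPM), the libraries with the highest Aldh1a2 of their groups, and 0 of the markers passed the looser limit in any comparison (6 tested against C57BL/6 and 3 between the Winnie groups). C57BL/6 replicate 7 was also the highest of its group in fibroblast markers (1240 CPM, others 891 to 1164 CPM) and fat markers (97.4 CPM, others 18 to 66.3 CPM). The same held for enteric neuron and glia markers (149 CPM, others 61.5 to 102 CPM). Its dendritic cell markers were the lowest (7.82 CPM, others 11.6 to 33.6 CPM). The part of mesothelium or of these other cells in the level of Aldh1a2 was not tested.

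Set against each other per kilobase, the 3 dehydrogenases changed places. In C57BL/6, Aldh1a1 made up 71.1 ± 6.83% of their sum and Aldh1a3 15.4 ± 7.59% (SD, n = 8). Winnie had 59.6 ± 20.6% Aldh1a1 and 34.7 ± 23% Aldh1a3 (SD, n = 7), and Winnie-Prolapse 12.5 ± 13.9% Aldh1a1 and 79.4 ± 26.9% Aldh1a3 (SD, n = 7). Aldh1a3 led in 6 of 7 Winnie-Prolapse libraries, at 73.5% to 97.8%, and in 1 Winnie library, replicate 2, at 81.7%. Winnie-Prolapse replicate 3 kept 41.5% Aldh1a1, 37.1% Aldh1a2 and 21.5% Aldh1a3. Their sum had a median of 10.2 CPM per kb in C57BL/6, 8.29 CPM per kb in Winnie and 21.4 CPM per kb in Winnie-Prolapse, and ranged from 7.57 to 138 CPM per kb in the last.

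**Figure D3:**
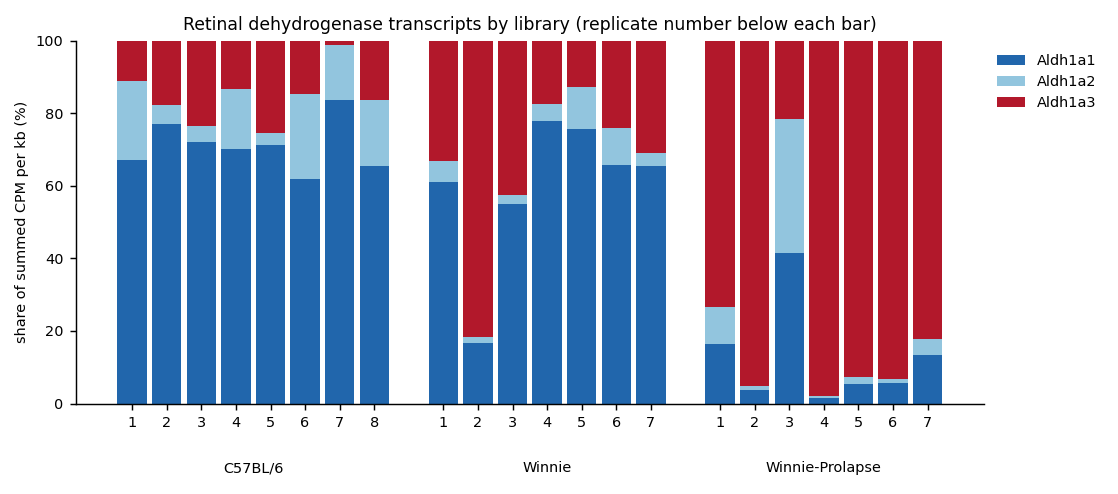
Share of Aldh1a1, Aldh1a2 and Aldh1a3 in their summed CPM per kb, 1 bar per library. Aldh1a1 takes at least 61.9% of each C57BL/6 bar, and Aldh1a3 takes at least 73.5% of each Winnie-Prolapse bar but that of replicate 3 (21.5%).

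Rbp2 encodes the retinol binding protein of absorptive enterocytes, which hands retinol to the esterifying enzyme Lrat. C57BL/6 libraries held 35, 40.7, 45.3, 37.2, 37.5, 41.6, 20.5 and 38.6 CPM. Winnie libraries held 13.5, 8.43, 19.9, 19, 35.2, 21.3 and 16.4 CPM, and Winnie-Prolapse libraries 12.1, 8.86, 32.1, 14, 4.51, 2.78 and 15.9 CPM. Below every C57BL/6 library lay 5 of 7 Winnie and 6 of 7 Winnie-Prolapse libraries, and the lowest C57BL/6 value was again that of replicate 7. The log2 fold change was -0.88 ± 0.23 (SE, edgeR adjusted p = 0.0152) in Winnie and -1.42 ± 0.39 (SE, edgeR adjusted p = 0.00655) in Winnie-Prolapse. Both passed the looser limit in 15 of 15 fits with 1 library left out. In Winnie it was not met with all 3 groups in one fit (edgeR adjusted p = 0.0874) or in females alone (-0.49, edgeR adjusted p = 0.36), and in Winnie-Prolapse it was not met in males alone (-1.14, edgeR adjusted p = 0.0659). Without Winnie-Prolapse replicate 3, whose colonocyte markers (11480 CPM) were the highest of its group, the latter was -1.88 (edgeR adjusted p = 0.000194) and Rbp2 was called. The 10 colonocyte markers summed to 15105 ± 1482 CPM (SD, n = 8) in C57BL/6, 11850 ± 4297 CPM in Winnie and 6246 ± 2886 CPM in Winnie-Prolapse (SD, n = 7 each). In Winnie, 0 of the 10 passed the looser limit as lower and 1 as higher. In Winnie-Prolapse these were 6 and 1. The part of colonocytes in the lower Rbp2 and Aldh1a1 was not tested. Winnie-Prolapse differed from Winnie by -0.54 ± 0.45 (SE, edgeR adjusted p = 0.458), so neither no change nor a fall of 1.5-fold lay 2 standard errors away.

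Stra6 encodes the membrane receptor that takes retinol up from its plasma carrier. It was low in all groups, at 4.84 ± 3.08 CPM (SD, n = 8) in C57BL/6, 4.06 ± 1.22 CPM in Winnie and 6.38 ± 3.09 CPM in Winnie-Prolapse (SD, n = 7 each). C57BL/6 held both extremes, 0.688 CPM in replicate 7 and 11.4 CPM in replicate 5, so Winnie and Winnie-Prolapse lay within its range. No comparison passed the looser limit, with log2 fold changes of -0.17, 0.45 and 0.62 (edgeR adjusted p = 0.762, 0.368 and 0.181) in Winnie, in Winnie-Prolapse and between them.

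Among the receptors, Rarb was the scarcest and had lower levels in both Winnie groups. Its CPM was 2.7, 1.54, 1.94, 3.4, 3.63, 2.56, 4.49 and 2.19 in C57BL/6, 1.16, 0.609, 1.58, 1.01, 2.13, 0.575 and 2.04 in Winnie, and 0.799, 1.97, 1.69, 1.12, 0.948, 0.766 and 1.14 in Winnie-Prolapse. Below every C57BL/6 library lay 4 of 7 Winnie and 5 of 7 Winnie-Prolapse libraries. The log2 fold change was -1.03 ± 0.31 (SE, edgeR adjusted p = 0.0234) in Winnie and -1.14 ± 0.26 (SE, edgeR adjusted p = 0.00187) in Winnie-Prolapse, with -0.1 between these groups (edgeR adjusted p = 0.867). The looser limit was not met in Winnie without Winnie replicate 1 (edgeR adjusted p = 0.0508), in males alone (0.0624) or in females alone (0.223), nor in Winnie-Prolapse in males alone (0.153). Leaving out C57BL/6 replicate 2 or Winnie-Prolapse replicate 3 made it a call in Winnie-Prolapse (edgeR adjusted p = 0.000755 and 0.000825). Smooth muscle markers moved the same way: 8 of 8 passed the looser limit as lower in each Winnie group, and their summed level was 7382 ± 1563 CPM in C57BL/6 (SD, n = 8), 3837 ± 1811 CPM in Winnie and 1888 ± 642 CPM in Winnie-Prolapse (SD, n = 7 each). The 10 enteric neuron and glia markers were lower as well, with sums of 86.8 ± 28.7 CPM in C57BL/6 (SD, n = 8), 35.9 ± 17.7 CPM in Winnie and 34.4 ± 10.2 CPM in Winnie-Prolapse (SD, n = 7 each). Of them, 10 passed the looser limit as lower in Winnie and 8 in Winnie-Prolapse. The part of either in the level of Rarb was not tested.

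Rara, the broadly expressed receptor, did not pass any limit. It measured 20.3 to 58.9 CPM in C57BL/6 (median 33.2), 21.6 to 42.5 CPM in Winnie (median 32) and 26 to 60 CPM in Winnie-Prolapse (median 33.1). Its log2 fold changes were -0.03 ± 0.21 and 0.1 ± 0.21 against C57BL/6 (SE, edgeR adjusted p = 0.931 and 0.707), so a change past 1.5-fold lay more than 2 standard errors away in both. Rarg, the receptor of stratified epithelia, ran from 8.44 to 27.5 CPM in C57BL/6 (median 19.1) and from 10.1 to 16.5 CPM in Winnie (median 12.1). In Winnie-Prolapse it was 13.6, 46.8, 12.4, 45.4, 21.2, 15.5 and 18.6 CPM, and its 2 high libraries, replicates 2 and 4, are also the 2 with the most Aldh1a3. Rarg was higher in Winnie-Prolapse than in Winnie by 0.94 ± 0.26 (SE, edgeR adjusted p = 0.0386), which passed the looser limit but did so in only 4 of 14 fits with 1 library left out and 4 of 9 other settings. Against C57BL/6 it gave -0.47 in Winnie and 0.46 in Winnie-Prolapse (edgeR adjusted p = 0.0963 and 0.191).

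Within the Winnie group, Aldh1a1 and Rbp2 were lowest where inflammation genes were highest. The mean log2 CPM of 12 inflammation genes (S100a8, S100a9, Lcn2, Il1b, Tnf, Il6, Il17a, Cxcl1, Cxcl2, Nos2, Reg3g and Saa3) ran from -1.28 in replicate 5 to 3.93 in replicate 2. In C57BL/6 this mean ran from -1.72 to -0.79, and Winnie replicate 5 lay within that range. Across the 7 Winnie libraries, the Pearson correlation of this mean with log2 CPM of Aldh1a1 was -0.966 and with Rbp2 -0.959 (exact two-sided permutation test, adjusted p = 0.00635 for both over 16 relations, raw p = 0.000397 and 0.000794). With each library taken as its deviation from the mean of its sex, neither passed: r was -0.94 for Aldh1a1 and -0.918 for Rbp2 (exact permutation test within sex, raw p = 0.0139 and 0.0347, adjusted p = 0.222 and 0.278), where 0.00694 is the smallest raw p possible. Even at that smallest p, Aldh1a1 and Rbp2 alone could not have passed 0.05 after adjustment over 16 relations. The step therefore could not decide. Without that step, Spearman's rho was -0.964 for each (exact permutation test, raw p = 0.00278, adjusted p = 0.0222). On CPM without TMM factors, rho of Rbp2 was -0.893 and no longer passed (exact permutation test, adjusted p = 0.0656), while its r of -0.944 did (exact permutation test, adjusted p = 0.0143). Without the 2 libraries farthest from the median, replicates 2 and 5, r was -0.937 and -0.87. Aldh1a3 went the other way, with r of 0.85 and rho of 0.893 (exact permutation test, adjusted p = 0.0646 and 0.0656), which did not pass 0.05 and fell to r of 0.358 without those libraries. The other 5 members had r between -0.682 and 0.629 (exact permutation test, adjusted p from 0.247 to 0.837).

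In Winnie-Prolapse, with 7 libraries as well, 0 of the 8 members passed. Aldh1a1 had r of -0.713 and Aldh1a3 r of 0.597 (exact permutation test, adjusted p = 0.247 and 0.281), and whether these differ from the values in Winnie was not tested. Of the Winnie libraries, the 3 males had inflammation levels of 2.4, 3.93 and 0.93 and the 4 females -0.46, -1.28, 0.15 and 1.4. In order of these levels, Aldh1a1 was 25.3, 18.5 and 11.6 CPM in the males and 33.2, 31.8, 22.6 and 19.8 CPM in the females, lower at each step within either sex. Rbp2 was 19.9, 13.5 and 8.43 CPM in the males. In the females it was 35.2, 19, 21.3 and 16.4 CPM, so not lower at each step. Colonocyte markers were lower towards high levels too, but not at each step. In rising order of level (replicates 5, 4, 6, 3, 7, 1 and 2), their sums were 15547, 16243, 16463, 8001, 11306, 9555 and 5837 CPM. The part of colonocytes was not tested.

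**Figure D4:**
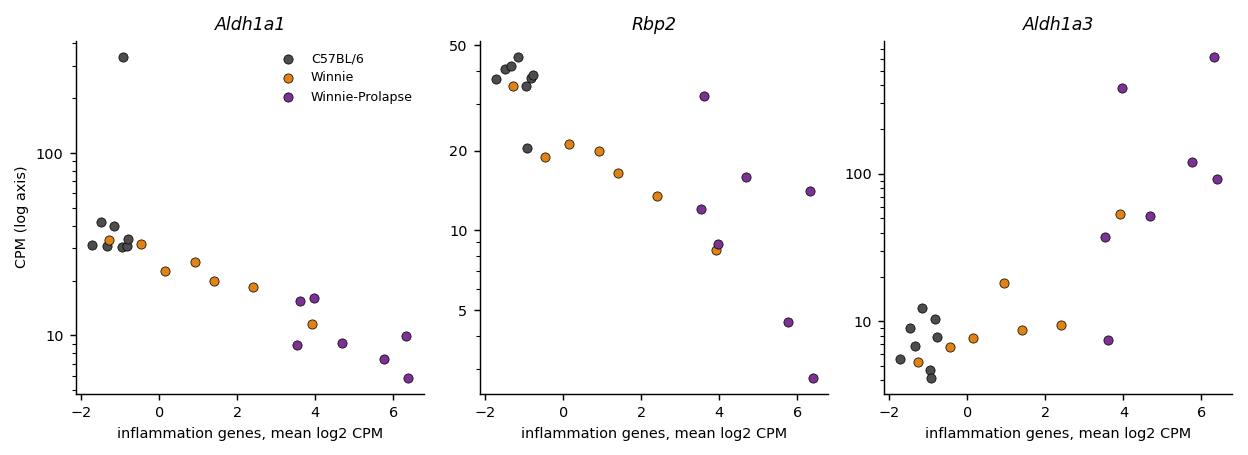
CPM of Aldh1a1, Rbp2 and Aldh1a3 (log axes) against the mean log2 CPM of 12 inflammation genes, 1 point per library, coloured by group. Within Winnie, Aldh1a1 and Rbp2 fall along the axis (r = -0.966 and -0.959), and Winnie-Prolapse replicate 3 keeps 32.1 CPM of Rbp2 at an inflammation level of 3.6.

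Males and females were compared over all groups, with group as a covariate. Of the 8 members, 0 differed at an adjusted p under 0.05 (edgeR), where 0.0788% of all genes did. The lowest unadjusted p was that of Aldh1a3, which was 1.06 ± 0.49 higher in males on the log2 scale (SE, edgeR adjusted p = 0.966). Its mean was 262 ± 294 CPM (SD, n = 4) in male and 87.9 ± 33.9 CPM (SD, n = 3) in female Winnie-Prolapse mice, and 7.89 ± 3.44 and 7.3 ± 2.57 CPM (SD, n = 4 each) in C57BL/6. The sex by group interaction called 0 members and 0% of all genes in Winnie and likewise 0% in Winnie-Prolapse. Its lowest unadjusted p was that of Aldh1a2 in Winnie-Prolapse, a difference of 3.44 ± 1.17 between the sexes' log2 fold changes (SE, edgeR adjusted p = 0.958), and the high C57BL/6 replicate 7 is one of the 4 C57BL/6 females it rests on, without which the difference was 1.97.

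For each member, the 2 genes whose log2 CPM followed it most closely were sought among 13600 genes, after each group's mean was removed, over the 22 libraries. The libraries share depth and the same outlying library, so the r values are descriptions. Aldh1a1 was followed by Mpst (r = 0.93) and Mapre3 (0.891), which fell to 0.775 and 0.765 without C57BL/6 replicate 7. Aldh1a2 was followed by Gpm6a, a mesothelium marker (0.867, and 0.893 without that library), and Celf5 (0.856). Aldh1a3 went with Ncl, the nucleolar protein nucleolin (0.919), and Ptk7 (0.9), and Rbp2 with Khk, the fructose kinase of absorptive cells (0.912), and Itfg3 (0.899). With all 22 libraries, the receptors had lower values: Irf2bpl (0.837) and Mef2d (0.836) for Rara, Cfl2, a muscle cofilin (0.842), and Trnp1 (0.831) for Rarb, and Slc35e4 (0.853) and Plxdc2 (0.82) for Rarg. Stra6 was followed by D930015E06Rik (0.899) and Lyz1 (0.897). Without C57BL/6 replicate 7 these were 0.81 and 0.832, while the receptors kept 0.819 to 0.858, so their lower place rests on that library in part.

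The steps on either side of the 8 genes were read from 55 other retinoid pathway genes in 5 lists. Of them, 48 passed the low-count filter in each comparison with C57BL/6 and 47 between the Winnie groups. In Winnie, 0 were called and 7 passed the looser limit, 4 higher (Rbp4, Rdh9, Ccr9 and Itgb7) and 3 lower (Bco2, Rdh5 and Crabp1), which is 14.6% of those tested beside 15.9% of all genes. The 4 higher became 0 without Winnie replicate 1 and without Winnie replicate 4, 1 without Winnie replicate 6 or C57BL/6 replicate 2 or 3, and 2 to 5 without any other single library. Without C57BL/6 replicate 7, Rdh9 and Itgb7 fell short of the limit (0.78 and 0.92, edgeR adjusted p = 0.0584 and 0.0509). In females alone 0 were higher, and without TMM factors 1. In Winnie-Prolapse against C57BL/6, 6 rose and 4 fell, and 20 passed the looser limit, 13 higher and 7 lower. These are 20.8% and 41.7% of those tested, beside 18.3% and 34.4% of all genes. Without C57BL/6 replicate 7, 10 rose and 4 fell, and 15 were higher and 8 lower at the looser limit. Against Winnie, 9 were higher and 4 lower at the looser limit (27.7% beside 6.99% of all genes). With 1 library left out these were 6 to 10 and 3 to 5, and in males alone 0 and 0. The median log2 fold change of the tested genes was 0.00 in both comparisons with C57BL/6.

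Among uptake and storage genes (11, all tested), 2 fell in Winnie-Prolapse. Stra6l, a close relative of Stra6 that takes up retinol in liver and gut, fell from 13.5 ± 3.13 CPM in C57BL/6 to 5.36 ± 1.31 CPM in Winnie-Prolapse (SD, n = 8 and 7, as for the genes that follow) (log2 fold change -1.26 ± 0.15, edgeR adjusted p = 1.07e-05), below every C57BL/6 and every Winnie library. Bco2, a carotenoid-cleaving oxygenase, fell from 23.5 ± 10.5 to 5.27 ± 2.45 CPM (log2 fold change -2.07 ± 0.33, edgeR adjusted p = 0.000102), and it stood at 7.66 ± 5.19 CPM in Winnie, past the looser limit (edgeR adjusted p = 0.00996). Rbp4, the plasma carrier, was higher and Ttr, its partner in plasma, lower at the looser limit (0.83 and -1.13, edgeR adjusted p = 0.00497 and 0.0328), and C57BL/6 replicate 7 held 2.57 CPM of Ttr against 41.1 to 63.4 CPM in the others. Without that library Ttr was called (-1.30, edgeR adjusted p = 7.6e-05), as was Rbp4 (edgeR adjusted p = 0.00056), whereas with each library left out in turn Ttr passed the looser limit in 6 of 15 fits. Isx had a log2 fold change of -1.04 with that library (edgeR adjusted p = 0.494) and 3.59 without it (edgeR adjusted p = 1.04e-05), so its direction turned. The abundant Dgat1 and Scarb1, which esterify retinol and take up carotenoids, did not pass (0.05 and 0.57, edgeR adjusted p = 0.777 and 0.0134), the latter for a change under 1.5-fold, and without C57BL/6 replicate 7 Scarb1 was called (0.70, edgeR adjusted p = 0.000906).

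Of the 19 retinol and retinal oxidoreductases, 16 were tested and 2 rose and 2 fell in Winnie-Prolapse. Rdh10, which makes the retinal that the Aldh1a enzymes use, rose from 32 ± 7.1 to 73.4 ± 16.2 CPM, above every C57BL/6 and every Winnie library (log2 fold change 1.28 ± 0.15, edgeR adjusted p = 5.98e-06). Rdh12 rose from 1.07 ± 0.384 to 10.1 ± 9.86 CPM (3.24 ± 0.57, edgeR adjusted p = 0.000255), in 5 libraries of 7 above the C57BL/6 range. Rdh5 fell from 6.5 ± 1.13 to 2.03 ± 0.266 CPM (-1.59 ± 0.13, edgeR adjusted p = 2.61e-07), and the other fall was that of Aldh1a7. Dhrs9, another retinol dehydrogenase, had the highest fitted change of the list, 3.98 ± 0.86 (SE, edgeR adjusted p = 0.00121), just short of a call, with 142 to 244 CPM in Winnie-Prolapse against 1.43 to 5.57 CPM in C57BL/6 libraries other than replicate 7 (76.9 CPM). Without that library its change was 6.06 ± 0.31 in Winnie-Prolapse, a call (SE, edgeR adjusted p = 5.88e-09), and 4.27 ± 0.6 in Winnie, past the looser limit (SE, edgeR adjusted p = 0.00108), where it had been 2.23 (edgeR adjusted p = 0.0785). Rdh1 and Adh7, both scarce, were higher at the looser limit in Winnie-Prolapse (2.94 and 2.02, edgeR adjusted p = 0.0123 and 0.0102), and Rdh1 gave 3.95 without that library. The most abundant of the list, Adh1, was lower at the looser limit (-0.94, edgeR adjusted p = 0.0383), at 818 ± 323 CPM against 1681 ± 607 CPM in C57BL/6. It passed that limit in 4 of 15 fits with 1 library left out, and gave -1.10 without C57BL/6 replicate 7 (edgeR adjusted p = 0.00101). Rdh11 was higher at that limit (0.7, edgeR adjusted p = 0.00227) and called without that library (edgeR adjusted p = 0.0005), and Rdh16 did not pass (-0.16, edgeR adjusted p = 0.671).

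Carriers and breakdown enzymes of the acid were scarce in C57BL/6, and 3 of 6 were tested. Fabp5, the carrier linked to another nuclear receptor, rose from 4.32 ± 1.18 to 63 ± 62.6 CPM (log2 fold change 3.85 ± 0.64, edgeR adjusted p = 0.000155). Crabp2, the carrier that delivers the acid to its receptors, did not pass the low-count filter and so has no value in the filtered fits, with 0 to 0.273 CPM in C57BL/6, 0 to 0.224 CPM in Winnie and 0.0296, 25.9, 0.0908, 16, 5, 3.3 and 16.4 CPM in Winnie-Prolapse replicates 1 to 7. With no low-count filter, Crabp2 was higher in Winnie-Prolapse by 6.76 ± 1.07 against C57BL/6, which passes as a call (SE, edgeR adjusted p = 0.000133), and by 6.71 ± 1.15 against Winnie, past the looser limit (SE, edgeR adjusted p = 0.012). DESeq2 called both (6.86 and 6.81, adjusted p = 4.18e-10 and 6.54e-08). Cyp26b1, a hydroxylase that breaks the acid down, did not pass (1.22, edgeR adjusted p = 0.0779). Crabp2 was high in the 5 libraries with high squamous markers and at most 3 counts in replicates 1 and 3. Fabp5 and Rdh12 followed the same libraries less strictly, with 6.01 and 1.48 CPM in replicate 1 and 4.05 and 0.817 CPM in replicate 3, and the part of squamous cells in these levels was not tested.

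Of the 11 retinoid X receptors and coregulators, 0 passed the looser limit in any of the 3 comparisons (11, 11 and 10 tested), and the list's median log2 fold change was 0.01 in Winnie and -0.03 in Winnie-Prolapse against C57BL/6. Rxra, the main partner of the receptors in epithelia, measured 128 ± 20.9 CPM (SD, n = 8) in C57BL/6, 118 ± 11.7 CPM in Winnie and 102 ± 11.5 CPM in Winnie-Prolapse (SD, n = 7 each), a log2 fold change of -0.24 in the last (edgeR adjusted p = 0.0786). Rxrb, the widely expressed partner, had an adjusted p under 0.001 but a change under 1.5-fold (-0.31 ± 0.06, edgeR adjusted p = 0.000969). Ncor1, Ep300 and Nrip1 gave -0.03, 0.05 and 0.05 in Winnie-Prolapse (edgeR adjusted p = 0.844, 0.769 and 0.767).

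Genes known as induced by retinoic acid gave 2 rises among 7 tested of 8 in Winnie-Prolapse, Tgm2 and Rarres1. Tgm2, a transglutaminase that inflammatory signals also induce, rose from 73.6 ± 12.5 to 278 ± 169 CPM, above every C57BL/6 library (log2 fold change 2.02 ± 0.31, edgeR adjusted p = 8.82e-05). Rarres1 measured 0.159 to 1 CPM in C57BL/6 and 0.769, 75.5, 0.847, 11.2, 24.9, 1.33 and 0.773 CPM in Winnie-Prolapse, with 4 libraries above the C57BL/6 range (log2 fold change 5.11 ± 1.01, edgeR adjusted p = 0.000609), and it was called in 5 of 15 fits with 1 library left out, not without C57BL/6 replicate 7 (edgeR adjusted p = 0.00117). The gut-homing genes Ccr9 and Itgb7 were higher at the looser limit in both Winnie groups, by 1.01 and 1.03 in Winnie and 1.47 and 1.4 in Winnie-Prolapse (edgeR adjusted p = 0.033, 0.0371, 0.00113 and 0.00144). In Winnie the limit held in 8 of 15 fits with 1 library left out for Ccr9 (edgeR adjusted p from 0.0134 to 0.0767) and 5 of 15 for Itgb7 (0.00918 to 0.0824), and in Winnie-Prolapse in all 15 for both. Both are lymphocyte genes. The 7 B and plasma cell markers summed to 615 ± 106 CPM (SD, n = 8) in C57BL/6, 1199 ± 394 CPM in Winnie and 1798 ± 263 CPM in Winnie-Prolapse (SD, n = 7 each). Of the 7, 2 passed the looser limit as higher in Winnie and 3 in Winnie-Prolapse, and 0 as lower in either. Their median log2 fold changes were 0.21 and 0.48. No marker list covered T cells, and the part of either cell type was not tested. Rarres2 was lower at the looser limit in Winnie-Prolapse (-0.71, edgeR adjusted p = 0.00743), and the epithelial homeobox gene Cdx1 did not pass (-0.01, edgeR adjusted p = 0.96), at 305 ± 28.1 CPM in C57BL/6 and 287 ± 36.6 CPM in Winnie-Prolapse.

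**Figure D5:**
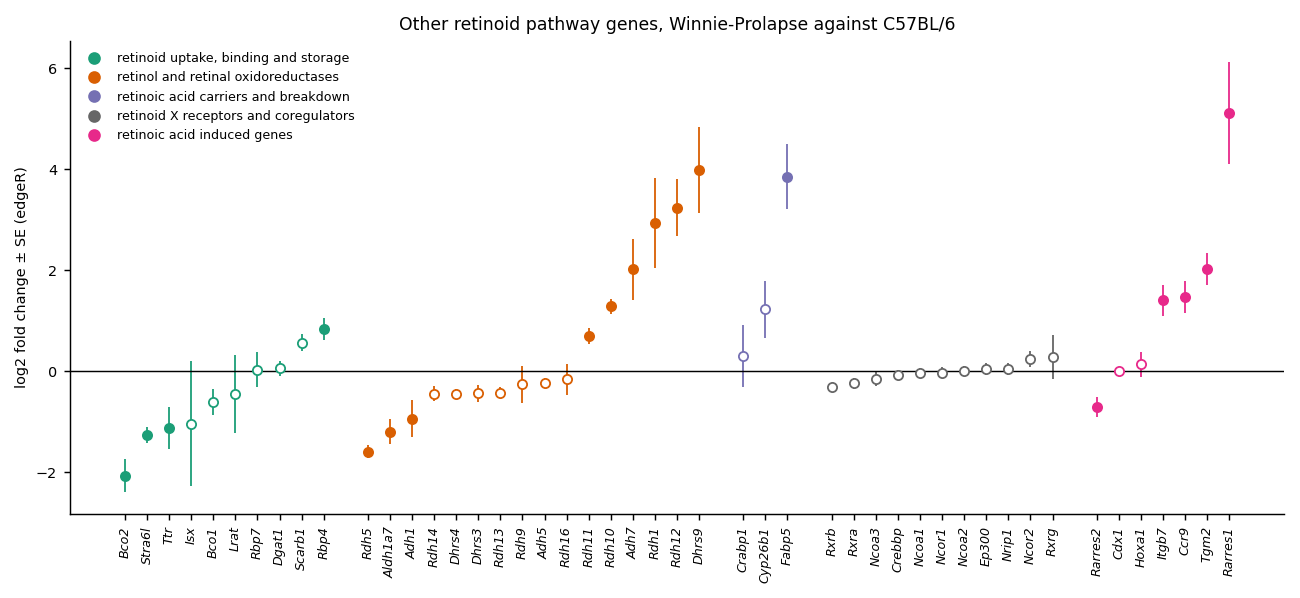
Fitted log2 fold change with its standard error (edgeR) of 47 of the tested pathway genes in Winnie-Prolapse against C57BL/6, by list; filled points passed the looser limit and open points did not. Filled points lie on both sides of 0 in the uptake, oxidoreductase and induced lists, and none is filled among the retinoid X receptors and coregulators.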

How the data were processed

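The authors sequenced poly(A) RNA with a stranded kit, aligned reads to GRCm38 with STAR and counted them per gene with featureCounts; the deposited values are whole-number counts, with no normalization. Strand setting, multi-mapping and annotation release are not given in the sources used here. Counts per library were 24.8 to 36.3 M, where 3 counts are 0.0825 to 0.121 CPM; such floors cover counting error only.

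Groups and sexes came from the labels. Each comparison was fitted on its 2 groups, after filterByExpr and TMM scaling, with the quasi-likelihood test of edgeR 4.0.16 (R 4.3.3) and Benjamini-Hochberg adjustment over all 17289, 17397 or 17041 genes tested. All 8 genes passed the low-count filter in each comparison. Calls used the authors' limits, an adjusted p under 0.001 and 1.5-fold. Males and females were compared in a model of all 22 libraries that also held the group, and the interaction was tested in another. Log2 CPM for correlations used a prior count of 2. CPM per kb used merged exons of GENCODE M21. Coding sequences were aligned as nucleotides.

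Tried as alternatives were other low-count filters, no TMM factors, sex as a covariate, DESeq2 1.42.0, limma-voom (limma 3.58.1), all 3 groups in one fit, each sex alone, each library left out and, added after seeing the data, correlations within sex. Scripts were tested on simulated data. Replicates are separate mice, and no 2 libraries of a group agreed within sampling noise. The genes, lists and tests were chosen with earlier results of these data known. Named are all 8 genes, the 2 genes most like each, and, of each pathway list, the 4 most abundant and up to 6 past the looser limit by smallest p. Isx, Rdh9, Rdh1, Adh7, Rxrb and Cyp26a1 were named after their values or sequences were seen. 1 pathway gene is not reported here.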

Additional observations from a re-analysis of the deposited data

Results flagged for a closer look

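Of 24 groups of values checked (8 genes in 3 groups), 7 held a library whose gap to its nearest neighbour was large for the spread of its group; chance gives about 1 in 20. In C57BL/6 replicate 7, Aldh1a1 stood at 337 CPM (others 30.7 to 41.7 CPM), Aldh1a2 at 28.2 CPM (others 0.656 to 5.31 CPM) and Rbp2 at 20.5 CPM (others 35 to 45.3 CPM). In C57BL/6 replicate 5, Stra6 stood at 11.4 CPM (others 0.688 to 5.53 CPM). In Winnie replicate 2, Aldh1a3 stood at 53.5 CPM (others 5.28 to 18.3 CPM). In Winnie-Prolapse, Aldh1a2 stood at 6.35 CPM in replicate 3 (others 0.604 to 2.52 CPM) and Rara at 60 CPM in replicate 4 (others 26 to 36.2 CPM). No member moved in opposite directions in every male and every female, and no member passed the interaction test.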

How the results depend on the processing

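The number of the 8 genes called in Winnie against C57BL/6 was 0, and 4 at the looser limit (2 to 5 with each library left out, 0 in females alone). In Winnie-Prolapse against C57BL/6 it was 1, against 2 without TMM factors, 4 with DESeq2, 2 with all 3 groups in one fit, 0 in males alone, 4 at the looser limit and 1 to 3 with each library left out; it was 2 without C57BL/6 replicate 7 and Winnie-Prolapse replicate 6 together, a setting chosen after seeing the data. In Winnie-Prolapse against Winnie it was 0, against 2 with DESeq2, 1 in females alone and 3 at the looser limit, where 485 genes were higher and 168 lower with DESeq2 and 53 and 1 in females alone. Of the pathway genes, 0, 10 and 0 were called in the 3 comparisons, against 1, 17 and 9 with DESeq2 and 7, 20 and 13 at the looser limit, and, in settings added after seeing the data, 0 to 1, 8 to 14 and 0 to 0 with each library left out and 0, 10 and 0 with no low-count filter. With limma-voom, Aldh1a3 was not called in Winnie-Prolapse against C57BL/6 (3.68, adjusted p = 0.0024). Over all genes, 16 were called in Winnie against C57BL/6 (15 higher, 1 lower), against 770 higher and 457 lower with DESeq2, 174 and 25 with all groups in one fit, 0 with limma-voom and 0 to 436 higher and 0 to 241 lower with each library left out. In Winnie-Prolapse against C57BL/6, 1712 were higher and 1474 lower, against 2729 and 2282 with DESeq2.

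The number of members correlated with the inflammation genes was 2, and 0 on deviations from the mean of each sex, a setting added after seeing the data. In that setting r in Winnie was -0.94 for Aldh1a1 and -0.918 for Rbp2. Its smallest possible p could not have passed these 2 alone after adjustment, so the 0 does not decide.

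Directions of log2 fold changes turned in these cases. In Winnie against C57BL/6, Rara was 0.040 and Stra6 0.090 with limma-voom, and Stra6 0.13 in males alone. In Winnie-Prolapse against C57BL/6, Aldh1a2 was 0.43 in males alone and Rara -0.015 in females alone. Between the Winnie groups, Aldh1a2 was -0.27 in females alone, and Rbp2 0.35 and Rarb 0.34 in males alone. With each library left out, Rara ran from -0.11 to 0.13 and Stra6 from -0.34 to 0.13 in Winnie, Rara from -0.017 to 0.27 in Winnie-Prolapse, and Rarb from -0.25 to 0.060 between the Winnie groups. The sex difference of Aldh1a1 ran from -0.77 to 0.059, and the interaction in Winnie from -0.81 to 1.29 for Aldh1a1 and -0.71 to 1.23 for Aldh1a2; the changed sign came without C57BL/6 replicate 7 in these 3. The causes were not tested. No paired analysis was possible because the replicate numbers follow accession order and pair no animals.

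Limits: prolapse goes with age, sexes hold 3 or 4 mice per group, Aldh1a2, Rarb and Stra6 are low in counts, and whole tissue does not separate cell number from RNA per cell.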
